A study of Rattus norvegicus with 8 samples.

Results

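The catenins are a family of 7 rat genes in these data, Ctnna1, Ctnna2, Ctnna3, Ctnnb1, Ctnnd1, Ctnnd2 and Ctnnal1, and their members were taken by gene symbol from the 18003 symbols in the files. They held 202 of the 98356 alternative polyadenylation (APA) sites, and 88 of those were sites of Ctnna2. Ctnna2 drew attention because 3 of its sites passed the site test of cannabis against control. The family was thus chosen by the measured Ctnna2 site values in that contrast, which are given here as a description without a test. The hypothalamus of adult male Long-Evans rats was collected 1 hr after a 10 min exposure to vaporized cannabis, from plant matter with 7.8% THC and 0.5% CBD, or to air alone. The 4 air controls carried replicate numbers 1, 2, 3 and 4 and the 4 cannabis-exposed rats 1, 2, 3 and 5, with 1 library each. RNA was read by whole transcriptome termini site sequencing (WTTS-Seq), in which each read is taken to mark the 3′ end of a polyadenylated transcript. Values are normalized counts, that is, reads per site scaled by the size factor of each library, and they were not divided by gene length. Whether every site is a true transcript end was not tested. The part of gene length in the site numbers and gene totals was not tested either.

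Catenins link cadherins, the adhesion receptors of cell junctions, to the inside of the cell. Beta-catenin (Ctnnb1) and plakoglobin bind the cadherin tail, and alpha-catenins join that complex to actin. Ctnna2 encodes the neuronal alpha-catenin, known for its part in synaptic contacts and dendritic spines, Ctnna1 the widely expressed form and Ctnna3 a form best known from heart and testis. The delta-catenins p120 (Ctnnd1) and the neuronal Ctnnd2 bind cadherins closer to the membrane. Ctnnal1 encodes alpha-catulin, an alpha-catenin relative. Beta-catenin also carries the Wnt signal to the nucleus when the destruction complex that degrades it is inactive.

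The catenins fell into genes with many sites and genes with few. Ctnna2 had 88 sites, Ctnnd2 had 48 and Ctnna3 had 47, whereas Ctnnd1 had 6, Ctnna1 had 5, and Ctnnb1 and Ctnnal1 had 4 each. By number of sites Ctnna2 was 14th of the 18003 symbols, and 0.0778% of symbols had as many or more. Cntnap2 had the most sites of any symbol, with 140. The site with the highest summed value over the 8 libraries is called the leading site, and sites are named by their row in the files. For Ctnna2 the leading site was site 1308, an exonic site on the minus strand of chromosome 4 in Rnor_6.0 (chr4:107880873-107880905). It carried 24.6% ± 7.39 (SD, n = 8) of the gene. The leading site of Ctnna1, site 1806, was a distal site, at the end of the transcript, on the plus strand of chromosome 18 (chr18:28055948-28056204), and carried 80.7% ± 3.22 (SD, n = 8).

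**Figure D1:**
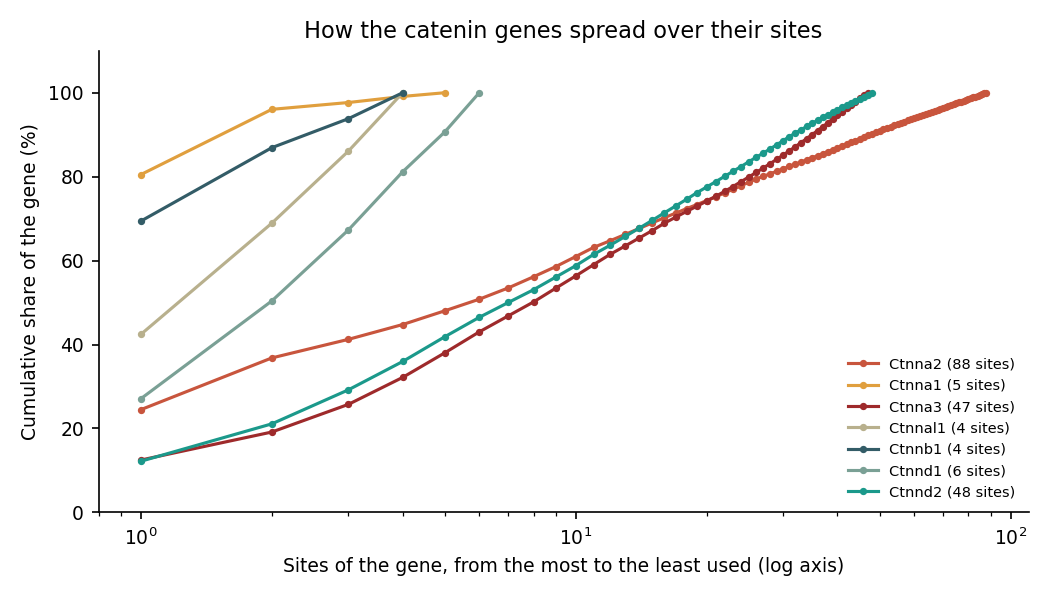
Cumulative share of each catenin's normalized counts, summed over the 8 libraries (vertical axis, percent), against the number of its sites taken from the most to the least used (horizontal log axis), with 1 line per gene. Ctnna1 reached 96.0% with 2 sites, whereas Ctnna2 reached 36.8%, Ctnnd2 21.1% and Ctnna3 19.2%.

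A gene's reads were spread in a similar manner among the 3 many-site members, apart from the top of Ctnna2. To collect 50% of the gene, 6 sites were needed for Ctnna2, 7 for Ctnnd2 and 8 for Ctnna3, against 1 for Ctnna1 and Ctnnb1. To collect 90%, 48 sites of Ctnna2, 32 of Ctnnd2 and 35 of Ctnna3 were needed, against 2 of Ctnna1 and 3 of Ctnnb1. Of the 88 Ctnna2 sites, 18 had a mean of at least 10 normalized counts and 56 a mean under 5, and 45 had a read in every library. Among the 78 genes with at least 40 sites the median leading-site share was 12.6%, and 14 of them had a higher share than Ctnna2, which had 24.5% when all libraries were summed. Ctnna3 at 12.5% and Ctnnd2 at 12.2% lay near that median.

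The number of Ctnna2 sites with a read was lowest in the 2 libraries with the fewest reads. With all reads, 85, 75, 85 and 71 sites had a read in the controls and 73, 82, 78 and 85 in the cannabis-exposed rats. At an equal depth of 490 Ctnna2 reads per library, the expected numbers were 73.9, 68.3, 68.2 and 71.0 in the controls and 63.3, 67.4, 70.4 and 68.9 in the cannabis-exposed rats. The groups overlapped in both counts.

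Ctnna2 was the most abundant catenin by gene total, the sum over all sites of a symbol. The control libraries had totals of 889.7, 821.2, 969.5 and 973.1 normalized counts, and the cannabis libraries 1099.0, 882.2, 877.8 and 1099.1. Cannabis replicates 1 and 5 were above every control and the other two were within the control range. The control mean was 913 ± 72.5 and the cannabis mean 990 ± 127 (SD, n = 4 each), a ratio of 1.08. Ctnna2 made up from 45.0% to 56.1% of the summed catenin totals of a library. That sum itself was narrow, from 1823 to 1982 normalized counts, which were from 0.0908% to 0.101% of the counts on all gene symbols, and rested on 974 to 2943 reads.

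The other alpha-catenins had lower totals. Ctnna1 had 204.0, 214.3, 206.1 and 129.1 normalized counts in the controls and 191.2, 298.3, 273.6 and 230.4 in the cannabis-exposed rats. Of these, 3 cannabis libraries were above all controls, cannabis replicate 1 was within the control range, and air control 4 was the lowest library. The Ctnna1 means were 188 ± 39.8 and 248 ± 47.3 (SD, n = 4 each). Ctnna3 had 271.9, 198.7, 219.6 and 389.2 in the controls and 216.1, 180.0, 254.9 and 135.9 in the cannabis-exposed rats, with air control 4 the highest library and cannabis replicate 5 the lowest. Ctnnal1 was at a low level in every library, from 5.0 to 22.3 normalized counts, with the lowest values in air control 4 and cannabis replicate 1.

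Ctnnb1 had 100.2, 137.7, 112.8 and 55.6 normalized counts in the controls and 84.4, 132.2, 132.8 and 104.5 in the cannabis-exposed rats. Air control 4 and cannabis replicate 1 were again the lowest of their groups, and the groups overlapped. Ctnnd2, the neuronal delta-catenin, had a narrow range, with totals of 389.6, 417.8, 345.8 and 363.4 in the controls and 347.7, 424.5, 360.2 and 366.4 in the cannabis-exposed rats. The other delta-catenin, Ctnnd1, ranged from 7.4 to 59.9 in the controls and from 16.1 to 26.6 in the cannabis-exposed rats.

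**Figure D2:**
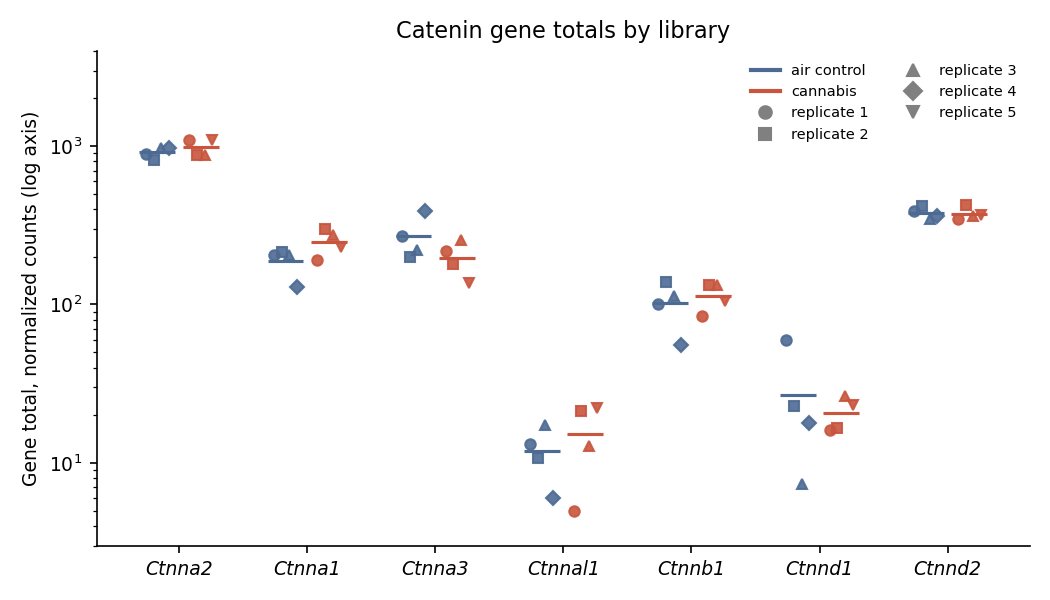
Gene total of each catenin in normalized counts (vertical log axis) in the 4 air controls (blue) and 4 cannabis-exposed rats (red), with 1 symbol shape per replicate number and a horizontal line at the group mean. The groups overlapped for every catenin, and Ctnna2 lay between 821.2 and 1099.1 in all 8 libraries.

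No catenin total other than that of Ctnna2, which was not tested, passed P under 0.01 in limma, where 0.278% of all 18003 gene totals did, or P under 0.05, where 2.41% did, nor did one pass P under 0.01 in edgeR on the recovered reads, where 0.3% did. The groups overlapped for each of the 7 totals, where 1.98% of all gene totals did not overlap. The differences below are cannabis minus control of log2(total + 1). For Ctnna1 the difference was 0.41 (SE 0.23, 95% interval −0.09 to 0.90, adjusted P = 0.999 in limma). Ctnna3 had the opposite sign, with −0.44 (SE 0.26, 95% interval −1.005 to 0.12, adjusted P = 0.999 in limma). Both leaned on air control 4, and without it the difference was 0.23 for Ctnna1 and −0.25 for Ctnna3, which was also −0.28 without cannabis replicate 5. With the replicate number as a block it was 0.26 for Ctnna1 and −0.086 for Ctnna3. The interval of Ctnnb1 was −0.41 to 0.83 around 0.21, and that of Ctnnd2 was −0.40 to 0.37 around −0.02. Precision was lowest for the scarce members, with intervals of −1.12 to 1.02 for Ctnnd1 and −0.81 to 1.30 for Ctnnal1. A change of about 2-fold in either direction lay within the interval of Ctnnd1. A rise of about 2-fold lay within that of Ctnnal1, and a fall of about 2-fold within that of Ctnna3. The exact permutation test of the totals, two-sided with a smallest possible P of 0.0286, gave P = 0.114 for Ctnna1, 0.200 for Ctnna3 and 0.657 for Ctnnb1.

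The order of catenin levels depended on whether all sites or the leading site were read. By total the order over the 8 libraries was Ctnna2 at 951, Ctnnd2 at 377, Ctnna3 at 233, Ctnna1 at 218, Ctnnb1 at 108, Ctnnd1 at 23.8 and Ctnnal1 at 13.6 normalized counts. Neighbours in this order, and in the order by leading site, were compared within libraries with an exact two-sided sign-flip permutation test. Its smallest P over 8 libraries is 0.0078, and the 12 comparisons were adjusted by the Benjamini-Hochberg method. The neighbours were picked by the order of the same values, which the adjustment does not cover. The P-values thus describe how steady each step was over the libraries and do not test the order. Ctnna2 was above Ctnnd2 in 8 of 8 libraries (2.52-fold by the means, exact P = 0.0078, adjusted P = 0.0188) and Ctnnd2 above Ctnna3 in 7 of 8 (exact P = 0.0156, adjusted P = 0.0312). Ctnna3 and Ctnna1 did not differ beyond their spread, each being higher in 4 of 8 libraries (exact P = 0.836, adjusted P = 0.836), and neither did Ctnnd1 and Ctnnal1 (exact P = 0.125, adjusted P = 0.167).

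By leading site the order was Ctnna2, Ctnna1, Ctnnb1, Ctnnd2, Ctnna3, Ctnnd1 and Ctnnal1. The lead of Ctnna2 over Ctnna1 was 1.33-fold by leading site, higher in 7 of 8 libraries (exact P = 0.0234, adjusted P = 0.0402), against 4.36-fold by total. The pair Ctnnd2 and Ctnnb1 changed places. Ctnnd2 was 3.51-fold above Ctnnb1 by total, higher in 8 of 8 libraries, but its leading site was at 0.616 of that of Ctnnb1, lower in 8 of 8 libraries. The adjacent pair Ctnnb1 and Ctnnd2 differed by leading site with exact P = 0.0078 and adjusted P = 0.0188.

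The share of a gene at its leading site differed more among the libraries of a group than between the group means. For Ctnna2, site 1308 held 19.97%, 26.7%, 33.1% and 12.9% of the gene in the controls and 19.2%, 34.7%, 22.5% and 27.9% in the cannabis-exposed rats. Air control 4 was the lowest library, followed by cannabis replicate 1, and the groups overlapped, with means of 23.2% ± 8.71 and 26.1% ± 6.77 (SD, n = 4 each). In the lowest and the highest library the 95% Wilson interval was 10.2% to 16.1% (air control 4) and 32.2% to 37.3% (cannabis replicate 2). These intervals take each read as independent, while the reads are PCR products without molecular identifiers, so they can be too narrow. Whether the spread was wider than counting error was not tested.

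Ctnnb1 had its lowest leading-site shares in the same 2 libraries. Site 4152 of Ctnnb1 held 67.2%, 69.6%, 72.0% and 50% of the gene in the controls and 36.8%, 75.9%, 82.2% and 80.9% in the cannabis-exposed rats. The 95% Wilson intervals were wide in the shallow pair, 32.6% to 67.4% for air control 4 with 28 reads and 26.3% to 48.6% for cannabis replicate 1 with 68 reads. Ctnnd2 showed the same order at a lower level, with 6.56% in air control 4 and 5.36% in cannabis replicate 1 against 10.3% to 18.9% in the other 6 libraries.

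Air control 4 and cannabis replicate 1 were thus the lowest pair in 3 of the 7 members, Ctnna2, Ctnnb1 and Ctnnd2, a pair noticed in these values. They were the lowest pair in 12.4% of the 9529 genes in which this was counted. These 2 libraries also had the largest shares of sites without a read, 26.1% and 16.95%, and 1159811 and 1919709 reads. Their part in the shares was not tested. Ctnna1 did not follow them, since its share stayed between 77.1% and 86.3% in all 8 libraries. Ctnna3 did not follow them either. At its site 11795 air control 4 had the highest share, 27.6%, cannabis replicate 1 had 12.6%, and cannabis replicate 5 had the lowest, 0.565%.

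**Figure D3:**
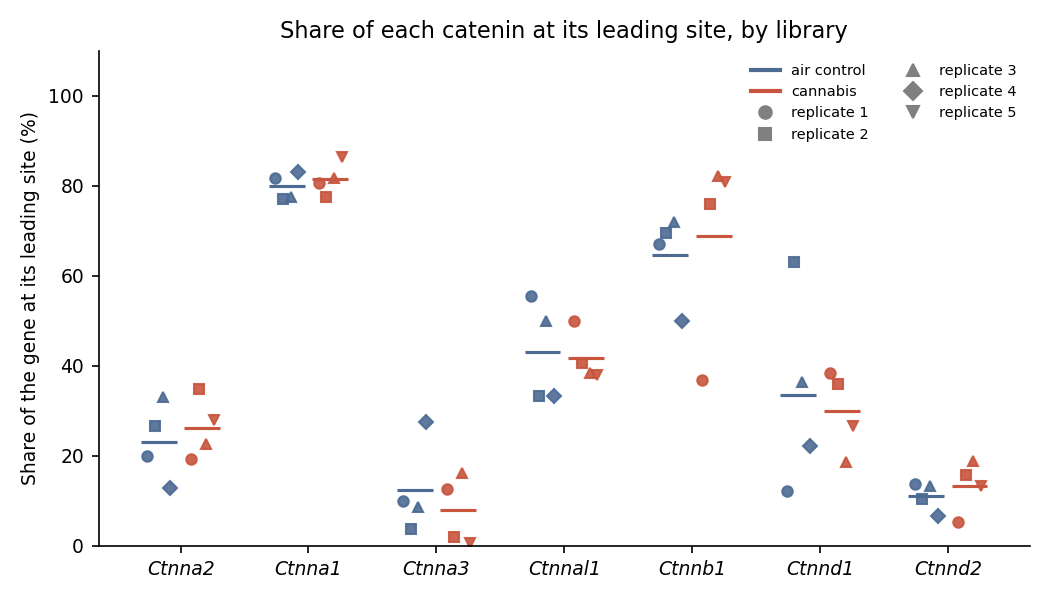
Share of each catenin's normalized counts at its leading site (vertical axis, percent) in the 4 air controls (blue) and 4 cannabis-exposed rats (red), with 1 symbol shape per replicate number and a horizontal line at the group mean. Air control 4 and cannabis replicate 1 were lowest for Ctnna2 (12.9% and 19.2%), Ctnnb1 (50% and 36.8%) and Ctnnd2 (6.56% and 5.36%), while Ctnna1 stayed near 80.7%.

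None of the 6 catenins tested passed P under 0.01 in limma for the leading-site share, where 0.439% of 9568 genes did. None passed P under 0.05, where 293 of the 9568 genes did. The fit was on the log2 odds of the leading site against the gene's other sites. The differences in log2 odds, cannabis minus control, were 0.17 (SE 0.43, 95% interval −0.78 to 1.12) for Ctnna1, 0.38 (SE 0.67, 95% interval −1.09 to 1.85) for Ctnnb1 and 0.24 (SE 0.55, 95% interval −0.97 to 1.44) for Ctnnd2. For Ctnna3 it was −1.07, with the widest interval of the 6, −3.13 to 0.99. A shift of 2-fold in the odds lay within the interval of each of these 4 genes. Without air control 4 and cannabis replicate 1, an alternative chosen after seeing the data, the difference was 0.30 for Ctnna1, 0.76 for Ctnnb1, 0.41 for Ctnnd2 and −0.98 for Ctnna3, and none passed.

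Below the leading site, several Ctnna2 sites were high or low in the same single libraries. Site 2798, the 2nd in rank, had 128.7, 88.6, 140.3 and 105.3 normalized counts in the controls and 110.5, 89.7, 96.4 and 178.2 in the cannabis-exposed rats, with the highest value in cannabis replicate 5. Site 7987 was highest in air control 4, at 85.4 against 14.1 to 49.7 in the other 7 libraries. Site 11694 was highest in cannabis replicate 1, at 67.1, followed by air control 4 at 37.7, and the other 6 libraries had 7.31 to 26.1. Both are libraries in which the leading site held a small share. They were also the highest at sites 9892 (45.7 in air control 4 and 62.1 in cannabis replicate 1), 12118 (29.8 and 36.0), 13035 (53.6 and 34.8) and 13403 (35.7 and 38.5). Site 9187 went the other way, with 1.99 in air control 4 and 16.8 to 55.1 in the other 7 libraries, and so did site 10063, with 3.97 against 13.3 to 47.0. Site 8221 had 28.8 ± 5.18 in the controls and 38.5 ± 10.9 in the cannabis-exposed rats (SD, n = 4 each), where cannabis replicate 1 was the low library at 22.4.

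Over all 88 Ctnna2 sites, 47 had a higher and 41 a lower mean in cannabis-exposed rats. The median difference of log2(normalized count + 1) was 0.12 and the range was −2.05 to 1.91. The sites that brought Ctnna2 forward are 3 of these 88, 2 lower and 1 higher, where 0.381% of all 98356 sites had P under 0.01, 0.258% lower and 0.123% higher, and nothing is read from that count because it chose the gene. They were minor sites of the gene. The intronic site 78192 (chr4:108356681-108356696, Rnor_6.0, minus strand), which lies 475.8 kb upstream of the leading site in the direction of transcription, had 12, 3, 1 and 3 reads in the controls and 0, 0, 0 and 1 in the cannabis-exposed rats. The groups overlapped, since air control 3 had 0.671 and cannabis replicate 5 had 0.768 normalized counts, a single read each. Site 78192 held 0.526% ± 0.381 of the gene in the controls (SD, n = 4). A count of 0 there allows up to 3 reads, which is 3.73, 1.99 and 2.95 normalized counts in cannabis replicates 1, 2 and 3.

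The other lower site, 17951, was the 13th of Ctnna2 in rank and had 29.2, 15.6, 9.40 and 33.8 normalized counts in the controls and 12.4, 10.6, 3.94 and 0 in the cannabis-exposed rats. The groups overlapped, since air control 3 lay below cannabis replicates 1 and 2. The higher site, 90919, had 0, 0, 1 and 0 reads in the controls and 4, 3, 2 and 7 in the cannabis-exposed rats, without overlap. Just outside the threshold was site 69024, with 0.731, 1.20, 0 and 1.99 normalized counts in the controls and 6.21, 3.99, 2.95 and 4.61 in the cannabis-exposed rats, or 3 reads against 20. Together the 3 sites inside the threshold held 104 reads in the controls and 47 in the cannabis-exposed rats, not scaled for depth. Of these, 84 and 30 were at site 17951. Nothing is read from this sum, because the sites were chosen by this contrast.

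**Figure D4:**
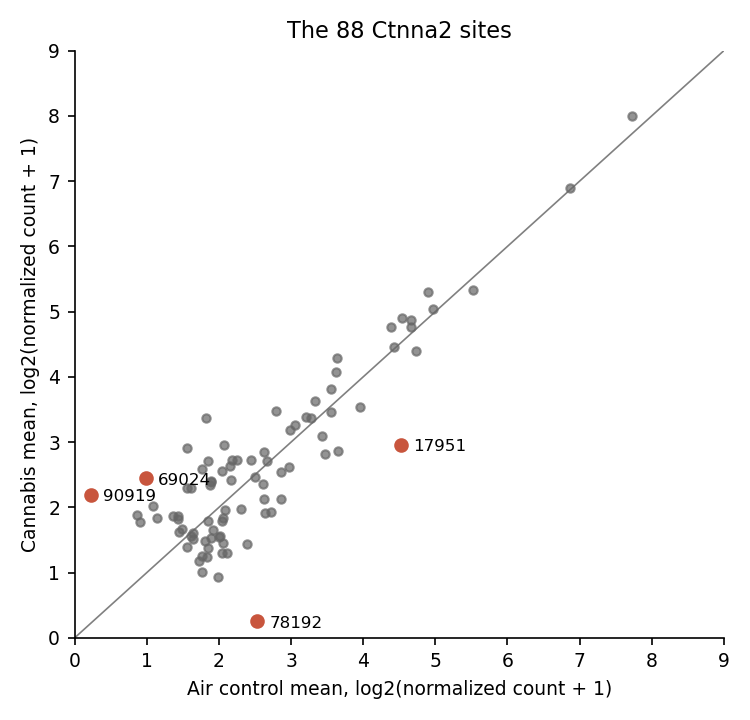
Group means of the 88 Ctnna2 sites, as log2(normalized count + 1), in air controls (horizontal axis) and cannabis-exposed rats (vertical axis), with 1 point per site and a line of equal means. The 2 points at the top right are the leading site and site 2798, and the red points are the 3 sites with P under 0.01 in limma (17951, 78192 and 90919) and site 69024 just outside.

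Outside Ctnna2, 0 of the 114 catenin sites had P under 0.01 in limma and 4 had P under 0.05, where 3.03% of all sites had. With edgeR on the recovered reads 0 passed P under 0.01 and 3 passed P under 0.05, where 0.526% and 2.91% of all sites passed these thresholds. Of the 114 sites, 56 had a higher and 58 a lower mean in cannabis. Groups did not overlap at 2 Ctnnd2 sites that were higher in cannabis and at 1 Ctnnal1 site that was lower, where 0.992% and 1.01% of all sites did not overlap and were higher or lower. The smallest P of the 114 was 0.0251, at a Ctnnd2 site, with an adjusted P of 1.00 in limma.

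Other catenin sites also varied widely within a group. The leading site of Ctnna3, 11795, had 27.0, 7.18, 18.8 and 107 normalized counts in the controls and 27.3, 3.32, 41.3 and 0.768 in the cannabis-exposed rats. Ctnna3 site 21021 had 85.4 in air control 4 and 0.984 to 16.6 in the other 7 libraries. Ctnnd2 site 9289 had 24.1, 77.8, 12.8 and 59.6 in the controls and 27.3, 54.5, 10.8 and 1.54 in the cannabis-exposed rats (difference −1.28, SE 0.72, adjusted P = 1.00 in limma), with overlapping groups. The 2nd site of Ctnnb1, 13818, had 22.7 ± 7.56 in the controls and 14.9 ± 10.9 in the cannabis-exposed rats (SD, n = 4 each, adjusted P = 1.00 in limma).

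Of genes inside introns of alpha-catenin genes, Lrrtm2 and Lrrtm3 were read apart from their hosts. Values for genes within Ctnna2 are not given. Lrrtm2, a synaptic adhesion gene within Ctnna1, had 28.7 ± 11.9 normalized counts in the controls and 25.6 ± 16.99 in the cannabis-exposed rats, and Lrrtm3, within Ctnna3, had 28.8 ± 8.81 and 28.9 ± 9.29 (SD, n = 4 each). Neither total passed P under 0.01 in limma, and both adjusted P-values were 0.999.

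The known partners of the catenins were counted by list. Of 98 listed symbols of cadherins, junction linkers, armadillo relatives, Wnt receptors, the destruction complex, transcription partners and targets, 85 had sites. The symbols without sites include Mllt4, Pvrl1, Pvrl2 and Pvrl3, older names of Afdn, Nectin1, Nectin2 and Nectin3, which were also listed and had sites. Of the 85 totals, 0 passed P under 0.01 in limma, with 2 at P under 0.05, where 2.41% of all gene totals were under 0.05. The difference was above 0 for 54 and below 0 for 31, with a median of 0.07 against 0.05 over all genes. The 2 under 0.05, named after their values were seen, were Cdh4 (R-cadherin) and the junction linker Ajuba. Cdh4 had 84.8 to 110.1 normalized counts in the controls and 132.8 to 151.3 in the cannabis-exposed rats, without overlap (difference 0.57, SE 0.21, adjusted P = 0.999 in limma). Ajuba was scarce, with 1.99 to 4.79 in the controls and 6.21 to 13.8 in the cannabis-exposed rats (difference 1.01, SE 0.45, adjusted P = 0.999 in limma).

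Among the 18 cadherins with sites, 13 had a difference above 0 and 5 below. The most abundant, Cdh18, had 65 sites and 382 ± 38.2 normalized counts in the controls and 356 ± 43.1 in the cannabis-exposed rats, and Cdh13 had 267 ± 28.6 and 299 ± 73.7 (SD, n = 4 each). Cdh2, the N-cadherin that neuronal catenins bind, was named after its values were seen and had 256 ± 17.4 and 262 ± 37.0. In the 20 junction linkers with sites, 15 were above 0 and 5 below, and the scaffold Magi2, with 80 sites, had 643 ± 33.1 and 630 ± 47.5, and Magi1 had 300.2 ± 44.9 and 282 ± 43.8.

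The 8 genes of the destruction complex with sites had 1 difference above 0, the kinase Gsk3b (675 ± 242 and 782 ± 160), and 7 below 0, with a median of −0.07. Axin2, both a scaffold of that complex and a Wnt target, had 135 ± 64.4 and 83.1 ± 60.4 (difference −1.01, SE 0.58, adjusted P = 0.999 in limma), and Fbxw11, which encodes a ubiquitin ligase subunit, had 413 ± 74.9 and 394 ± 43.1. Of the 8 beta-catenin targets with sites 3 were above 0 and 5 below, and the cyclin gene Ccnd1 had 115 ± 31.9 and 139 ± 50.1. The 9 transcription partners were split 5 to 4, with Chd8 at 121 ± 26.0 and 135 ± 62.6 and Tcf7l2 at 104 ± 8.34 and 124 ± 21.7. The 16 Wnt receptor and Dishevelled genes were split 11 to 5, with Fzd9 at 186 ± 60.8 and 185 ± 50.6 and Dvl1 at 86.1 ± 27.0 and 101 ± 30.4. The 7 armadillo relatives were split 6 to 1, with Pkp4 at 467 ± 202 and 459 ± 137 and Ctnnbip1, an inhibitor of beta-catenin, at 172 ± 55.7 and 175 ± 45.6. Errors of these lists are SDs, with n = 4 in each group.

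Ctnna2 kept a nearly flat profile over the 8 libraries. Among 6103 genes with a mean total of at least 50, the nearest profiles by root mean square difference of centred log2 totals over 8 libraries were those of Pih1d2 (0.0829), Gtf3c2 (0.0865), Grm7 (0.0912, a gene with 63 sites), Pcsk5 (0.0912) and Ccny (0.0919), against a median of 0.365. Ctnnd2 was the nearest catenin at 0.231, and Ctnna1, Ctnna3 and Ctnnb1 were at 0.409, 0.472 and 0.495.

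The tissue label was checked against marker genes, and all 9 hypothalamic markers were read. Their summed totals were 2699 to 5038 normalized counts in controls and 6778 to 8892 in cannabis-exposed rats, with 2 of 9, Avp and Oxt, higher at P under 0.01 in limma, where 0.1% of all gene totals were. Without these 2 hormone genes the sums were 826 to 1353 and 1048 to 1875. The 6 midbrain dopamine markers summed to 699 to 920 in controls and 179 to 353 in cannabis-exposed rats, with 3 of 6 lower at P under 0.01, where 0.178% of all gene totals were. Sums of 3 thalamus markers (165 to 172 and 179 to 229) and 4 endothelium markers (88.5 to 93.3 and 109 to 123) did not overlap either, with none of those markers called. How often sums of other genes do not overlap was not counted, so nothing is read from the overlap of these sums. The thalamus markers Tcf7l2 and Lef1 were also counted among the beta-catenin transcription partners. Neuron markers overlapped, at 2160 to 2437 in controls and 2182 to 2571 in cannabis-exposed rats. The sums also overlapped for the astrocyte, oligodendrocyte, microglia, choroid plexus and pituitary markers and for those of ependyma and tanycytes. Fewer cells of a type cannot be told apart from less RNA per cell, and the part of these markers in the catenin values was not tested.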

How the data were processed

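WTTS-Seq libraries of 8 hypothalami, 4 from air controls and 4 from cannabis-exposed rats, were grouped by the sample labels. Per the study's methods, the authors cleaned reads (FASTX Toolkit), removed the Ts at their start, aligned them to Rnor_6.0 (TMAP 3.4.1), merged ends within 24 nt into an APA site, required 16 reads per site and named genes by Cuffcompare 2.2.1. The signal values the authors deposited are reads per site over the DESeq2 size factor of the library, so they are normalized counts and not raw reads. All values (100%) were whole multiples of the value of 1 read, within 0.001 reads, and libraries held 1159811 to 3706778 reads. A single read was worth 0.664 to 1.99 normalized counts, which limits the precision of minor sites.

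Files were joined by row order and sites summed by symbol. Totals, sites and leading-site log odds of all genes were fitted with limma 3.58.1 (R 4.3.3, lmFit and eBayes with trend, no covariates) on log2(normalized count + 1), a scale that understates changes of low values, with Benjamini-Hochberg adjustment over all features and a P threshold of 0.01. Leading-site fits took genes with at least 2 sites and a mean total of at least 10. Reads were also tested with edgeR 4.0.16 (quasi-likelihood). Members and lists were chosen with earlier results of these data known. Named genes were the 7 members, their sites with a mean of at least 20 in either group or P under 0.01, the 2 most abundant genes of each partner list, and the 5 profiles nearest to Ctnna2. Positions of 3 sites were matched from the study's tables by symbol and values, and other positions were not used here. A list of further partners is not reported here. The study's methods describe a library for each rat, while the labels only number the samples. Alternatives were pseudocounts of 0.5 and 5, filters on low values, equal totals, no trend, edgeR, the replicate number as a block, and each library left out.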

Additional observations from a re-analysis of the deposited data

Results flagged for a closer look

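In 8 of 78 groups of 4 libraries 1 library stood far from the other 3 by Dixon's test. For independent, normally distributed values chance gives this in about 1 of 20 groups. These groups share libraries and sites, and a single read against zeros is always flagged, so the count was not read as an excess. Air control 4 was low for the Ctnna1 total, at 129.1 normalized counts, and for Ctnna1 site 1806, at 107.2, and high for Ctnna3 site 21021, at 85.4. Cannabis replicate 1 was low for the Ctnnb1 leading-site share, at 36.8%, and for Ctnna2 site 8221, at 22.4 normalized counts. Cannabis replicate 2 was high for Ctnna3 site 21021, at 16.6. At the scarce Ctnna2 sites a single read stood apart from zeros, with 0.768 at site 78192 in cannabis replicate 5 and 0.671 at site 90919 in air control 3, both below the 3 reads taken as the floor.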

How the results depend on the processing

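Of 360 values of 23 tested results on catenins other than Ctnna2 under the alternatives, 327 kept their sign, and no tested catenin result passed P under 0.01 under any of them. Sites with P under 0.01 numbered 375, and 44 with a mean of at least 10 normalized counts. Gene totals numbered 50, with 29 under that filter and 98 without the trend. Leading-site shares numbered 42, with 27 at a pseudocount of 5 and 13 with a mean gene total of at least 50. Leaving out each library gave 227 to 617 sites (fewest without cannabis replicate 5 or air control 1, most without air control 3 or cannabis replicate 1), 30 to 90 gene totals (fewest without air control 1 or cannabis replicate 5, most without cannabis replicate 1, air control 3 or cannabis replicate 2) and 20 to 59 leading-site shares (fewest without air control 1 or cannabis replicate 5). Without air control 1 the lower sites no longer prevailed, with 141 higher and 90 lower, against 121 and 254. The filters test fewer features, and for the rest the cause was not tested.

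The libraries that share a number had correlations of group-centred gene totals of r = −0.271, 0.134 and −0.101 for numbers 1, 2 and 3. Libraries of unlike numbers ranged from −0.520 (air control 4 with cannabis replicate 2) to 0.623 (air control 4 with cannabis replicate 1). So few correlations cannot show whether libraries of the same number were handled together, and the labels do not say. With the replicate number as a block, which leaves 3 pairs, 229 sites, 24 gene totals and 25 leading-site shares had P under 0.01, and signs turned for the totals of Ctnnal1 (−0.25) and Ctnnb1 (−0.022), for the leading-site log odds of Ctnna3 (0.20), Ctnnb1 (−0.17) and Ctnnd2 (−0.048), and for sites 4152 (−0.20), 6191 (−0.094), 9769 (0.092) and 11795 (0.063). Site 9769 also turned in edgeR (0.057), and site 11328 without both air control 4 and cannabis replicate 1 (0.14), an alternative chosen after seeing the data that gave 427 sites, 70 gene totals and 40 leading-site shares.

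Signs also turned when 1 library was left out, with ranges of −0.017 to 0.67 for the Ctnnal1 total, −0.054 to 0.38 for Ctnnb1, −0.51 to 0.44 for Ctnnd1 and −0.079 to 0.030 for Ctnnd2. The leading-site log odds ranged from −0.28 to 0.090 for Ctnnal1, −0.65 to 0.48 for Ctnnd1 and −0.0074 to 0.66 for Ctnnd2, and the sites from −0.13 to 0.65 for 4152, −0.061 to 0.59 for 6191, −0.46 to 0.10 for 9769 and −0.25 to 0.15 for 11328. For Ctnna2, which was not tested, 27 of 192 values turned sign, in 9 of 16 results. With 1 library left out its total stayed between 0.057 and 0.16, but its leading-site log odds ranged from −0.042 to 0.54, and sites 2798, 7987, 9187, 9892, 10063, 11694, 13035 and 13403 crossed 0 too (10063 from −0.23 to 0.86 and 11694 from −0.48 to 0.53). The pseudocount moved the scarce Ctnna2 sites, to −0.84 for 78192 at a pseudocount of 5 and to 2.60 and 0.71 for 90919 at 0.5 and 5. Depth limits the members most at sites with a mean under 5 normalized counts, 56 of the 88 sites of Ctnna2 and 73 of the other 114.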
